A study of Mus musculus with 6 samples.

Results

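The skeletal myosin heavy chain (MyHC) genes of the mouse lie side by side on chromosome 11, and the 6 of them described here, Myh3, Myh2, Myh1, Myh4, Myh8 and Myh13 in that order, were taken by name from the 23057 annotated genes matched to RefSeq by symbol or synonym. The cluster runs over 293.3 kb of NCBI Build 37 (mm9), from chr11:66891802 to chr11:67185088, with all members on the plus strand, and it was examined with 50 kb on each side. Binding of Sox6 and of RNA polymerase II (Pol II) was measured by chromatin immunoprecipitation and sequencing (ChIP-seq). There were 2 Sox6, 2 Pol II and 2 input libraries, the second of each kind from an independent experiment.

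All 6 libraries came from the same kind of cells: primary limb myoblasts of wild-type C57BL/6 mouse fetuses at E18.5, used at passage 17 and turned into myotubes by 48 h in medium with 2% horse serum. Nuclear proteins were crosslinked with disuccinimidyl glutarate before formaldehyde. The Sox6 antibody was ab30455 and the Pol II antibody was 4H8 (ab5408), and input DNA was sequenced as the background with no library from a control antibody. No second condition or genotype was sequenced, so each comparison was between an immunoprecipitate and input, and both comparisons used the same inputs.

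Myosin heavy chains are the motors of the thick filament and set how fast a fibre contracts. Myh3 encodes the embryonic and Myh8 the perinatal isoform of developing muscle, Myh2, Myh1 and Myh4 encode the fast isoforms IIa, IIx/d and IIb of adult fibres, and Myh13 encodes an isoform of extraocular muscle. Sox6 is a transcription factor of the Sox family that binds DNA through its HMG box and is known in fetal muscle as a repressor of slow fibre genes, while Pol II along a gene marks the transcribing enzyme.

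The myotubes carried Pol II on the genes that define them. All 8 myotube markers, among them the fusion gene Tmem8c and the creatine kinase gene Ckm, had more Pol II than input in the gene body, with log2 ratios from 2.33 to 6.75, beside 37.6% of all gene bodies, and so did the 3 myoblast markers Pax7, Myf5 and Myod1. None of 8 fibroblast markers and none of the 3 blood and endothelial markers tested was higher, whereas 1 of 3 heart markers was, the natriuretic peptide gene Nppa at 2.92. The Sox6 libraries held 2985437 and 1468604 reads, the Pol II libraries 1538757 and 2762155, and the inputs 21973495 and 24249850, so values at single windows rest on few immunoprecipitated reads. Reads of the first input were 36 bases long and those of the other libraries 39.

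The sequences below are those that the binding results turn on: 5 of the 8 intervals with Sox6 peaks, and the 250 bases before the starts of the embryonic and perinatal genes and of the 2 genes that follow a common Sox6 peak. All are written 5′ to 3′ on the plus strand of NCBI Build 37. In the peaks, capitals mark matches on either strand to the Sox motif (ACAAAG or ACAATG), the E-box bound by myogenic factors (CAGCTG or CAGGTG), the Tead motif (GGAATG) and the Runx motif (CCACA).
Peak before Myh2, chr11:66978582-66978741: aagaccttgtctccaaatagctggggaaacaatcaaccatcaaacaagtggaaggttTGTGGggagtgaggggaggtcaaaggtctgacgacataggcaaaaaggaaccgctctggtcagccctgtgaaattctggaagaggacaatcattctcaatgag
Peak before Myh1, chr11:67013162-67013301: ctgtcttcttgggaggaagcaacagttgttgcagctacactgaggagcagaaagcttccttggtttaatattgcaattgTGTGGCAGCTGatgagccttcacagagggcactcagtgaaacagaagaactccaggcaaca
First peak past Myh3, chr11:66916682-66916941: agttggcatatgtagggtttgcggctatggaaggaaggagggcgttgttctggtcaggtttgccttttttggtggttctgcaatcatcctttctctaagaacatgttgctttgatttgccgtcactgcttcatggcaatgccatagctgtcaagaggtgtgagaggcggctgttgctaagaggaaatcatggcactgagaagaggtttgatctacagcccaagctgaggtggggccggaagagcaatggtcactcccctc
Second peak past Myh3, its middle 300 bases, chr11:66918032-66918331: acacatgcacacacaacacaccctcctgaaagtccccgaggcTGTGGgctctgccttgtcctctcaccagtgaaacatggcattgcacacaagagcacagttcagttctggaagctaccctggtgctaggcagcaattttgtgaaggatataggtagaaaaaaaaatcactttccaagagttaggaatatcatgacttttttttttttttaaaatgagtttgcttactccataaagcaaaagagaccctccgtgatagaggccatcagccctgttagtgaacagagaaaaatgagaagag
Peak past Myh8 and before Myh13, chr11:67127452-67127551: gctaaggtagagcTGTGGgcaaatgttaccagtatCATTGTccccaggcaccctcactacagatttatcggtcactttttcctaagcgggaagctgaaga
In the promoters, capitals mark runs of at least 14 bases that occur unchanged in the promoter of another member, and a TATAAA.
Before Myh3, chr11:66891552-66891801: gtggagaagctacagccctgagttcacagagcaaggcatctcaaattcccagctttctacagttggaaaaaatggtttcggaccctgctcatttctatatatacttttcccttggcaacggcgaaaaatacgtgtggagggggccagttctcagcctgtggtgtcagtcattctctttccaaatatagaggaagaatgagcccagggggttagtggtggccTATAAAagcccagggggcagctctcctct
Before Myh8, chr11:67090376-67090625: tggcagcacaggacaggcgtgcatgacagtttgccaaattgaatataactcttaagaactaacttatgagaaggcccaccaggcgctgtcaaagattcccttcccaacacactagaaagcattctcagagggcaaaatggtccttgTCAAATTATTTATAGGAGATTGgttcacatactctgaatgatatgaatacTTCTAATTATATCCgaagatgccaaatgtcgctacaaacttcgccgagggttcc
Before Myh2, chr11:66984279-66984528: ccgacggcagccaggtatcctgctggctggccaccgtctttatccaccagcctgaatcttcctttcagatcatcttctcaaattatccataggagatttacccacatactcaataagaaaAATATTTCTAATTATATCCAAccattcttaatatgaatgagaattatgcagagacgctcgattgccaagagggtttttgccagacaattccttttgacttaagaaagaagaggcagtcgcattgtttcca
Before Myh1, chr11:67013304-67013553: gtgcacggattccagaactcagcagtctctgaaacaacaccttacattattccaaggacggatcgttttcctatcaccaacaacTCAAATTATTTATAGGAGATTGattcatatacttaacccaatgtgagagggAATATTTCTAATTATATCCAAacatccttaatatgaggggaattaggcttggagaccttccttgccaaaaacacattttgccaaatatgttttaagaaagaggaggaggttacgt

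Myh1 and Myh8 shared a run of 22 bases, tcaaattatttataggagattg, which began 166 bases before the start of Myh1 and 104 bases before that of Myh8 and was in 2 of all promoters searched, those of the pair itself. It contains a match to the MEF2 motif, found in 1.67% of all promoters, and this match overlaps a TATAAA on the minus strand. Myh2 and Myh1 shared a run of 21 bases, aatatttctaattatatccaa, and 14 bases of it, ttctaattatatcc, were also before Myh8. The promoter of Myh3 had none of these runs, and its TATAAA lay from 29 to 24 bases before the start. On either strand, TATAAA was within 250 bases of the start in 5 of the 6 members, all but Myh2. In Myh4 it lay from 248 to 243 bases before the start of the longest model, chr11:67051531. A second annotated start of Myh4, chr11:67051314, lies a short way past this TATAAA and before the first, so the distance depends on the model. In Myh1 and Myh8 the TATAAA lay inside the MEF2 match. It was in 11.8% of all promoters of that length, and since these motifs were chosen after the sequences were seen, nothing is read from the counts.

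Pol II was bound along the whole of the embryonic and the perinatal gene and was low or below the input level on the adult fast genes and on Myh13. In the gene body, from 500 bp past the start to the end, Myh3 had 72.8 and 77.5 RPKM (reads per kb for each 1000000 mapped reads) in the Pol II libraries against 0.726 and 0.785 in the inputs. Myh8 had 17.1 and 18.9 RPKM of Pol II against 0.590 and 0.525. Both genes stood far above input in both libraries, and in level of Pol II Myh3 was second and Myh8 was number 54 of the 20144 gene bodies tested, with Actb, a housekeeping gene, at number 21. Relative to input, Pol II was at 6.64 on the log2 scale (standard error 0.0769, adjusted p = 2.53e-10) for Myh3 and 5.01 (standard error 0.0949, adjusted p = 2.78e-09) for Myh8. In a bulk culture, a larger share of nuclei with Pol II on a gene and more Pol II per nucleus cannot be told apart.

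Myh1, the IIx/d gene, carried a low level of Pol II. Its body had 1.35 and 1.31 RPKM of Pol II and 0.498 and 0.542 RPKM of input, groups that did not overlap, and the log2 ratio was 1.37 (standard error 0.143, adjusted p = 3.21e-05). No Pol II peak was called in it in either replicate. Its level was number 4628 of 20144 in rank, and it was lower than that of Myh8 by more than the spread of the replicates. Antisense transcripts of other genes are annotated over parts of Myh1, and the reads of ChIP-seq carry no strand of transcription. Over the 1.3 kb of its body shared with Gm10995, Pol II was at 1.49 and 2.77 RPKM, 3 and 10 reads, against 0.523 and 0.632 in the inputs. Over the 9.4 kb of Myh1 with no other gene, it was at 1.94 and 1.16 RPKM against 0.513 and 0.610. Over the 13.3 kb shared with Gm12300 they were at 0.927 and 1.28 RPKM against 0.485 and 0.486, and over the 13 kb of Gm12300 past the end of Myh1 at 0.650 and 0.641 against 0.560 and 0.660, where the groups overlapped. The part of antisense transcripts in these values was not tested.

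Scaled to mapped reads, Pol II on the other members lay below input. Myh4, which encodes IIb, the fastest isoform, had 0.415 and 0.314 RPKM of Pol II against 0.507 and 0.468 of input, which is -0.39 on the log2 scale (standard error 0.228, adjusted p = 0.162). Its call turned with the setting. Without Pol II replicate 1 its ratio was -0.60, and with libraries scaled on 10 kb bins it was called higher at 0.78 (adjusted p = 0.0117). Under that scaling 60.6% of all bodies were called higher, and the median over all bodies was 1.29, above the value of Myh4. Myh2 had 0.225 and 0.306 RPKM against 0.525 and 0.503, and Myh13 had 0.118 and 0.176 against 0.513 and 0.457. The last pair passed the test, at log2 ratios of -0.92 (standard error 0.221, adjusted p = 0.00548) for Myh2 and -1.69 (standard error 0.214, adjusted p = 0.000109) for Myh13. These calls depended on scaling to all mapped reads: with libraries scaled on 10 kb bins the ratios were 0.26 and -0.52 and neither passed, and Myh2 did not pass when either input was left out (adjusted p = 0.0775 and 0.0591). In order of Pol II level the members were Myh3, Myh8, Myh1, Myh4, Myh2 and Myh13, and Myh4 and Myh2, at 0.364 ± 0.0716 and 0.266 ± 0.0576 RPKM (SD, n = 2), lay about as far apart as the replicates spread.

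Counted over the cluster, 3 of 6 members had more Pol II than input in the gene body and 2 had less. Of all 20144 bodies tested 37.6% were called higher and 25.6% lower, so the counts are read against genes in general and single out no member. With libraries scaled on 10 kb bins every Pol II ratio rose by about the median shift of 1.18, the calls were 4 higher and 0 lower among the members and 60.6% higher and 3.21% lower over all bodies, and Myh3 and Myh8 were at 7.81 and 6.19. Exact permutation of 2 against 2 libraries cannot go below p = 0.333, and the adjusted p-values from limma rest on a spread shared over all genes.

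**Figure D1:**
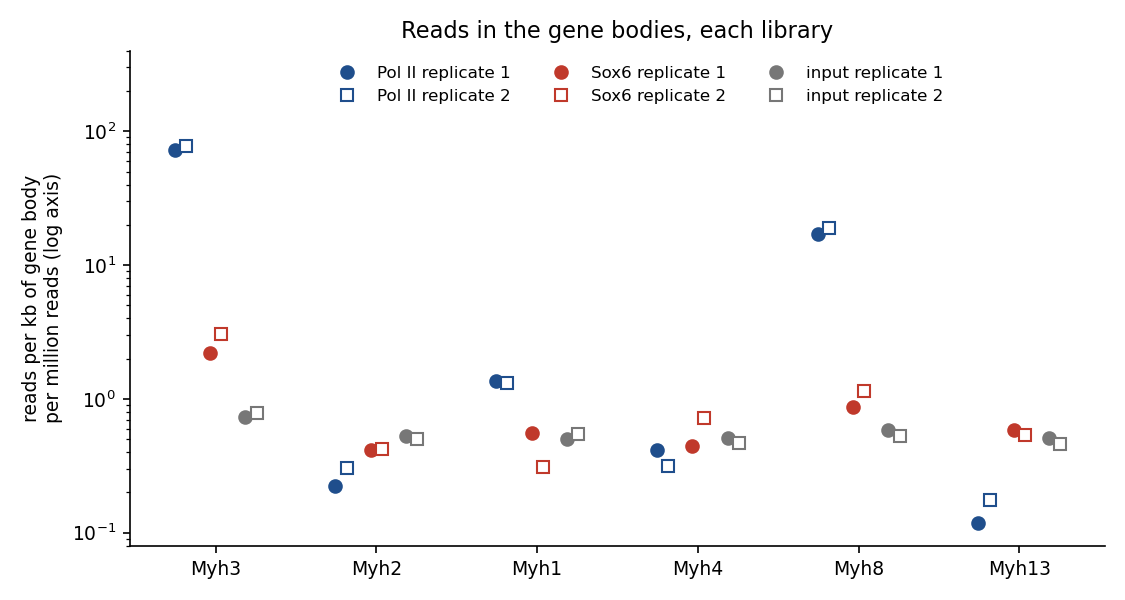
Reads in the gene body in RPKM (log axis) for each of the 6 members in chromosome order, with 1 point for each library: Pol II in blue, Sox6 in red, input in grey, circles for replicate 1 and open squares for replicate 2. Pol II lies at 72.8 and 77.5 on Myh3 and at 17.1 and 18.9 on Myh8, near 1.3 on Myh1, and under the inputs on Myh2, Myh4 and Myh13.

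At the starts the same pair stood out. Within 500 bp of the start, Myh3 had 90 and 156 Pol II reads against 33 and 27 in the far deeper inputs, which is 5.46 on the log2 scale (standard error 0.244), and Myh8 had 28 and 40 against 9 and 27, a ratio of 4.56 (standard error 0.339). Both passed the test, as did 47.1% of the 18736 starts tested, whose median log2 ratio was 1.41, and both also passed with a pseudocount equal in RPM (adjusted p = 0.00337 and 0.00357). The starts of Myh2, Myh4 and Myh13 had no Pol II read in either library, with 10 to 18 reads in each of the far deeper inputs, and that of Myh1 had 1 and 6. Counts of 0 in the smaller Pol II libraries are at the floor. The size of a ratio there rests on the reads added to each count and cannot show depletion. Without Pol II replicate 1, the start of Myh1 was called higher at 1.34 and those of Myh4 and Myh13 lower at -1.66 and -2.02. With libraries scaled on 10 kb bins the start of Myh1 was called higher at 1.88 and none was called lower. Under that scaling 65.3% of all starts were called higher, and the median over all starts was 2.59, above the value of Myh1. With a pseudocount equal in RPM the starts of Myh2, Myh4 and Myh13 were called lower at -1.95, -2.17 and -2.46. The annotated second starts of Myh4 and Myh13 were as poor, with 1 and 0 Pol II reads at Myh4 and 0 and 1 at Myh13.

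Pol II lay along the whole of Myh3 and Myh8, with a smaller share near the start than in most genes. The density at the start relative to the body was -0.31 and -0.45 on the log2 scale for Myh3 in the 2 Pol II libraries, and 0.11 and -0.36 for Myh8. The median over the 7579 genes called higher was 0.77 and 0.67, and both genes were below it in both libraries. Cut into 10 equal parts, Myh3 ranged from 57.4 to 87.2 RPKM in replicate 1 and from 68.1 to 86.8 in replicate 2, with the first part highest in both. Myh8 was less even, from 5.77 to 26.6 and from 8.04 to 27.2 RPKM, with the first part highest in replicate 1 and level with the third in replicate 2. Its lowest part was the seventh in both replicates, where the inputs were lowest too, at 0.318 and 0.366 RPKM, and where 65.7% of positions are unique in the genome at 39 bases, against 89.2% to 98.3% in the other parts. Exons and introns of Myh3 were alike in Pol II, at 72.1 and 80.9 RPKM in exons and 73.7 and 76.8 in introns.

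The Pol II domains ran past the annotated ends. The deposited Pol II peaks covered 93.6% of Myh3 in replicate 1, in 4 peaks, and 92.2% in replicate 2, in 5, and went on for 4718 and 5538 bp past its end. A peak of 16101 bp in Myh3 was the widest of the 11299 Pol II peaks of replicate 1, whereas in replicate 2 the widest peak in Myh3 had 7821 bp and the widest of the region, at the end of Myh8, had 10881 bp and was number 21 of 17488 in width. In Myh8, 11 peaks in each replicate covered 73.3% and 81.5% of the gene, and the last of them ended 1295 and 1695 bp past it. A further peak that did not reach into the gene ended 2395 and 2715 bp past Myh8 in the 2 replicates. The bodies of Myh2, Myh1, Myh4 and Myh13 held no Pol II peak in either list. In reads, Pol II past Myh3 was still at 46.8 and 62.6 RPKM in the third kb and fell to 1.95 and 2.17 in the seventh. Past Myh8 it was at 9.10 and 10.9 RPKM in the third kb and 1.3 and 1.09 in the fourth, so the tail of Myh8 was shorter.

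**Figure D2:**
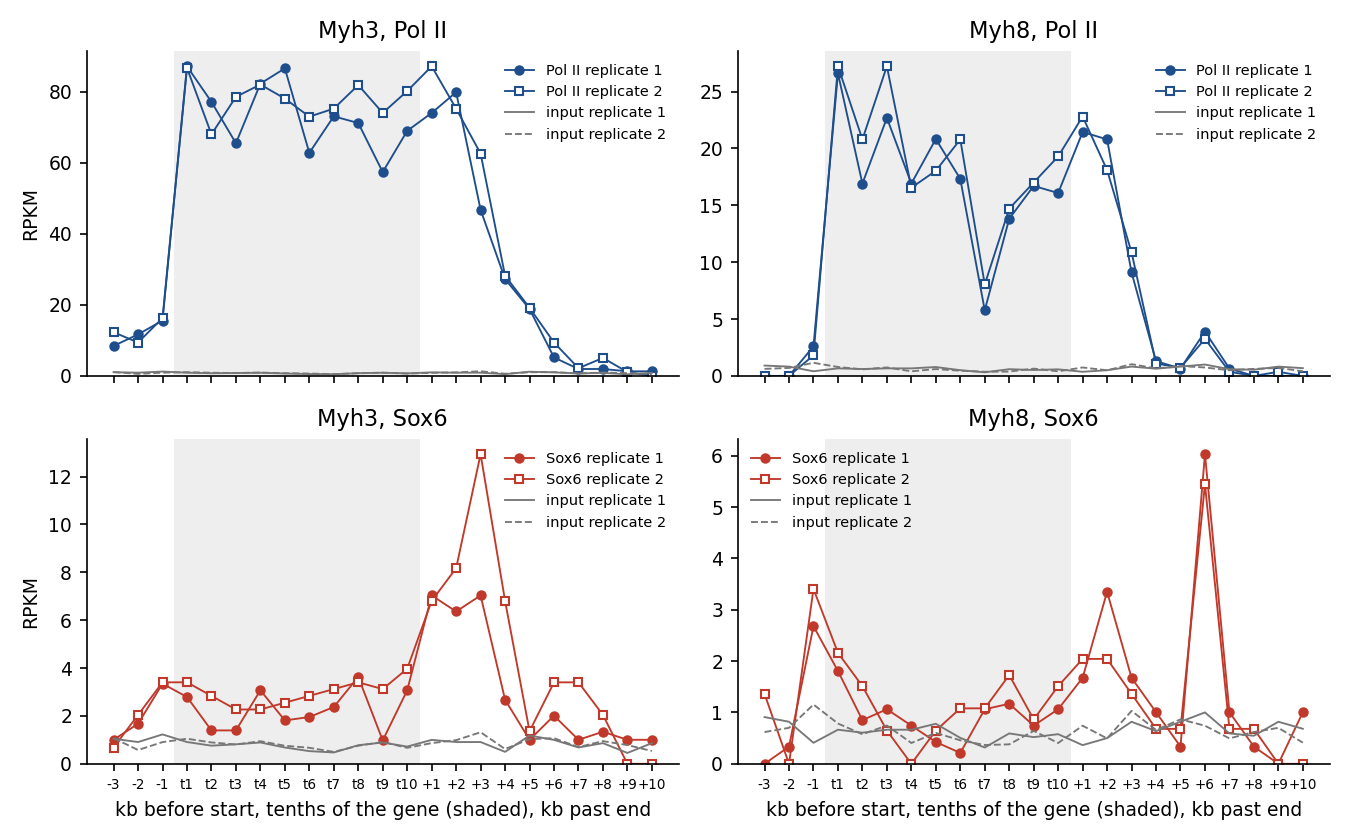
Pol II (upper panels, blue) and Sox6 (lower panels, red) in RPKM along Myh3 (left) and Myh8 (right), with inputs as grey lines. The horizontal axis gives the 3 kb before the start in 1 kb steps, the 10 equal parts of the gene (shaded) and the 10 kb past the end in 1 kb steps, with filled circles for replicate 1 and open squares for replicate 2. Pol II is high over the whole of both genes, whereas Sox6 is highest past the end of Myh3, at 7.03 and 12.9 RPKM in the third kb, and in the sixth kb past Myh8, at 6.03 and 5.45 RPKM.

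Between the genes, Pol II was above input on both sides of Myh3 and past Myh8. Spacers were the gaps between neighbouring protein-coding genes matched to RefSeq, less 500 bp at each end, and the one from Myh2 to Myh1 lies within Gm10995, a gene model not matched to it. Pol II was above input in the spacers from Sco1 to Myh3, from Myh3 to Myh2 and from Myh8 to Myh13, with log2 ratios of 2.65, 2.71 and 2.54, which makes 3 of the 7 spacers that touch a member, beside 16% of all 16121 spacers tested. The spacer from Myh13 to Gas7 was called lower at -1.29, as were 41.4% of all spacers, and scaled on 10 kb bins it was at -0.12 and no longer passed. The spacers from Myh2 to Myh1, Myh1 to Myh4 and Myh4 to Myh8 were at 0.01, 0.11 and -0.32 and did not pass. Scaled on 10 kb bins, those from Myh1 to Myh4 and from Myh4 to Myh8 were called higher at 1.29 (adjusted p = 0.00446) and 0.85 (adjusted p = 0.0368). Under that scaling 36.4% of all spacers were called higher, with a median of 0.47. Without Pol II replicate 2 the ratio from Myh4 to Myh8 was -0.53. In the first 10 kb past Myh3 Pol II was at 25.9 and 29.04 RPKM against 0.837 and 0.887 in the inputs, and in the 58.2 kb from there to Myh2 at 1.06 and 1.14 against 0.696 and 0.631. The lower value still did not overlap the inputs. The noncoding gene 2310065F04Rik, also known as linc-MYH, lies in this stretch on the minus strand, and its body had 1.37 and 1.32 RPKM of Pol II against 0.690 and 0.573, which is 1.13 on the log2 scale (standard error 0.252, adjusted p = 0.00360). Beyond 5 kb past Myh8 the spacer to Myh13 had 0.605 and 0.674 RPKM of Pol II and 0.720 and 0.570 of input, which overlap, and trimmed by 5 kb at each end that spacer no longer passed (adjusted p = 0.0605). Trimmed in the same way, those from Sco1 to Myh3 and from Myh3 to Myh2 passed, at 1.52 (adjusted p = 0.0210) and 0.95 (adjusted p = 0.000711). The annotated extent of Sco1 runs to chr11:66880572, into the spacer before Myh3.

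**Figure D3:**
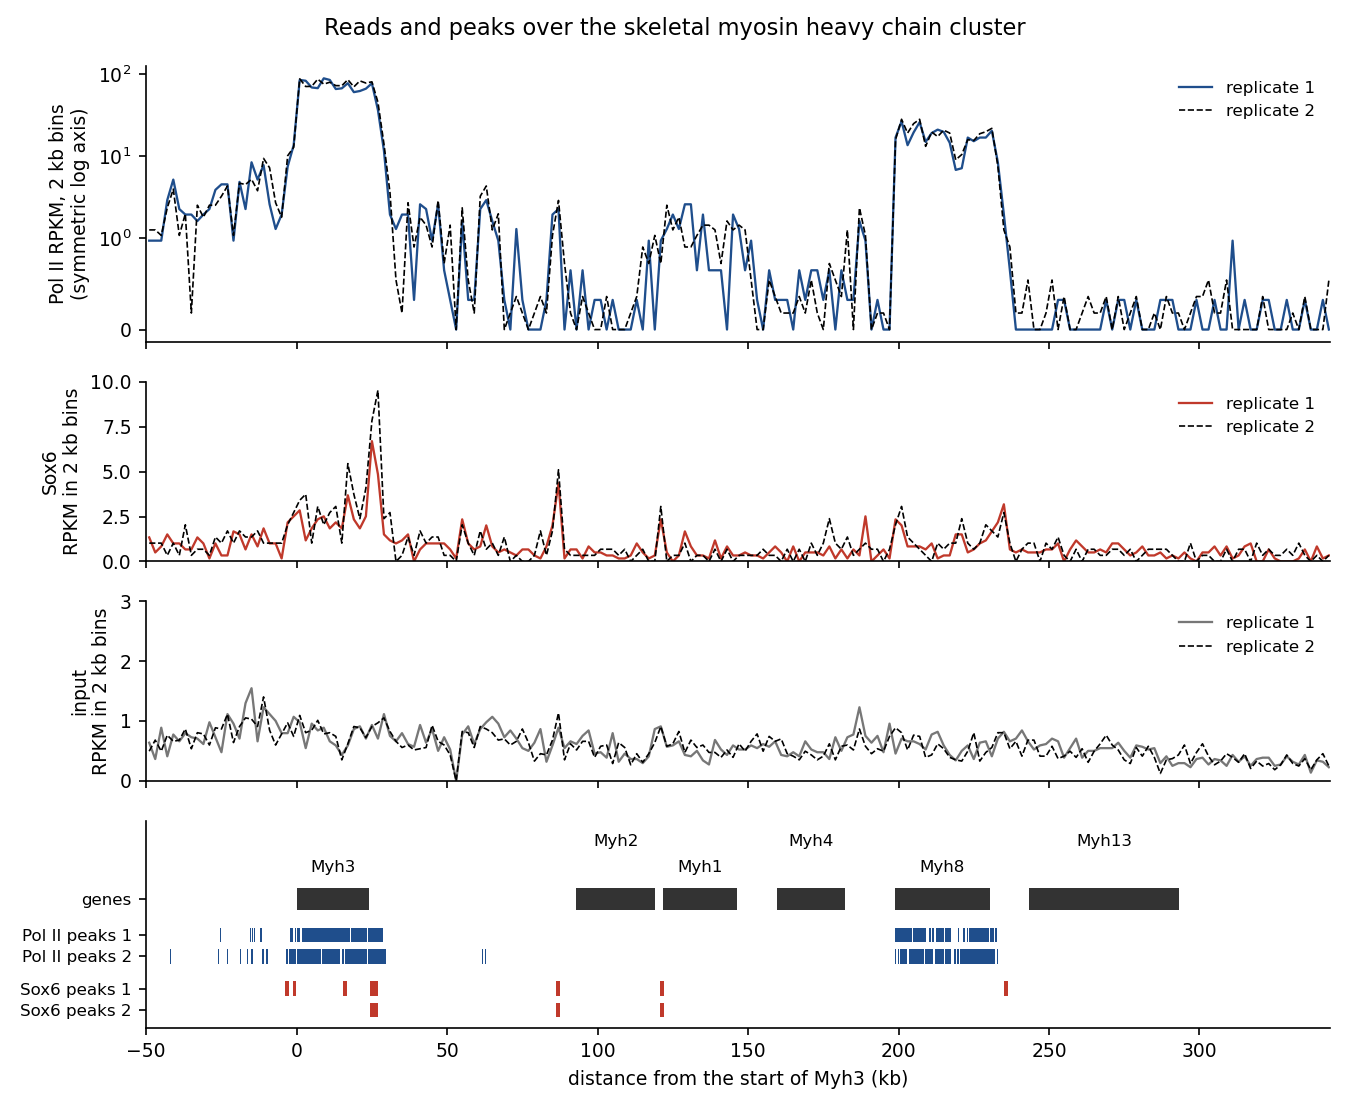
Reads in 2 kb bins over the cluster and 50 kb to each side, against the distance from the start of Myh3 in kb: Pol II on an axis that is linear to 1 RPKM and logarithmic above, Sox6 and input on linear axes, with replicate 1 in colour and replicate 2 dashed. The lowest panel has the 6 genes as bars and below them the deposited Pol II and Sox6 peaks of each replicate, with Sox6 peaks drawn 1.2 kb wide so that they can be seen. Pol II forms plateaus on Myh3 and Myh8, and the Sox6 peaks lie around Myh3, before Myh2, before Myh1 and past Myh8.

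Sox6 was found at 8 places in the region, most of them outside the genes. The list of replicate 1 had 8 peaks there, that of replicate 2 had 4, and the authors' list of peaks common to both had 4. For each of the 4 peaks of replicate 2 a peak of replicate 1 was no more than 50 bp away. The common peaks lay 1018 and 2388 bp past the end of Myh3 (centres), 5868 bp before the start of Myh2 and 323 bp before the start of Myh1. The peaks of replicate 1 alone lay 3141 and 681 bp before the start of Myh3, in an intron of Myh3, and 5365 bp past Myh8, which is 7659 bp before the start of Myh13. None lay in Myh2, Myh1, Myh4, Myh8 or Myh13, and no list had a peak at the start of Myh3 or Myh8.

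A peak called in 1 replicate was tested in the reads of the other, which had no part in the call, by an exact two-sided binomial test of Sox6 against input in 450 bp windows, which covers counting error only and compares a library with a library. Of the 8 peaks of replicate 1, 7 had more Sox6 than input in replicate 2, as had 67% of all 2888 peaks of that list. All 4 peaks of replicate 2 passed in replicate 1, as did 84.4% of the 1734 in the list. Before Myh2, the peak of replicate 2 held 22 Sox6 reads of replicate 1 against 8 input reads, 20.2 times the input share (95% interval 8.68 to 52.6, adjusted p = 1.03e-13). The peak of replicate 1 there held 9 Sox6 reads of replicate 2 against 20, 7.43 times (2.98 to 17.1, adjusted p = 8.12e-05). Before Myh1, the peak of replicate 1 held 7 Sox6 reads of replicate 2 against 7 input reads, 16.5 times (4.94 to 55.2, adjusted p = 2.01e-05). The peak of replicate 2 there held 10 Sox6 reads of replicate 1 against 9, 8.18 times (2.99 to 22.75, adjusted p = 4.07e-05). Past Myh8, in a peak called in replicate 1 alone, replicate 2 had 7 Sox6 reads against 3 input reads, a ratio of 38.5 (8.80 to 230.9, adjusted p = 1.24e-06). The peak in the intron of Myh3 had 2 reads against 14, a ratio of 2.36 (0.260 to 10.3, adjusted p = 0.271), and was the exception.

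The reads at the peaks of the fast genes were few. Both are common peaks, called in each replicate, so their likeness between replicates and distance from input follow in part from that choice. In the window before Myh2, Sox6 was at 7.03 and 6.13 RPM, reads for each 1000000 mapped (21 and 9 reads), and input at 0.546 and 0.825. In the window before Myh1 it was at 3.35 and 4.77 (10 and 7 reads) against 0.410 and 0.247. The groups did not overlap in either window. Their log2 ratios of 3.30 and 3.64 were close to the median of the 1066 common peaks, 3.52, and are given as a description since these reads called the peaks. In these 450 bp windows the peak past Myh8 had the largest ratio of the region, 4.62, which 107 of the 1066 common peaks exceeded. That window held 7 and 3 input reads, and its Sox6, at 5.69 and 4.77 RPM, was below that before Myh2. In 1 kb windows its log2 ratios in the replicates were 2.60 and 2.74, below the 3.12 and 2.93 before Myh2.

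Pol II differed widely between the 8 Sox6 peaks. In the windows past Myh3, Pol II was at 50.7 and 47.4 RPM in the first and at 18.2 and 31.5 in the second, with log2 ratios to input of 6.82 and 5.81. The windows before Myh3 had 4.55 and 4.71 RPM of Pol II at 3141 bp and 3.90 and 5.79 at 681 bp, with ratios of 3.51 and 3.40, and the intronic window was at 6.46. In the window before Myh2 it was at 0 and 1.81 RPM (0 and 5 reads) against 0.546 and 0.825 in the inputs, which overlap, with a ratio of 0.21 (standard error 0.806, adjusted p = 0.843). Before Myh1, Pol II was at 0.650 and 0.724 RPM, 1 and 2 reads, with a ratio of 1.46 (standard error 0.770, adjusted p = 0.116). Neither passed. Without Pol II replicate 1 the ratio before Myh2 was 1.52. Scaled on 10 kb bins the ratio before Myh1 was 2.64 and passed. Under that scaling 78.4% of all Sox6 peak windows were called higher, with a median of 2.88. Past Myh8, Pol II was at 1.95 and 1.81 RPM, 3 and 5 reads, against 0.319 and 0.124, a ratio of 3.26 (standard error 0.729, adjusted p = 0.00112), at a place that is 5365 bp from the gene and outside all Pol II peaks. In 1 kb windows on this peak the Pol II ratios in the replicates were 2.04 and 1.83 on the log2 scale. In the sixth kb past Myh8, which holds this peak, Pol II was at 3.90 and 3.26 RPKM, and in the kb on either side of it at 0.362 to 0.724 RPKM. In all, 6 of the 8 windows had more Pol II than input, as had 54.6% of the 3529 Sox6 peak windows tested.

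**Figure D4:**
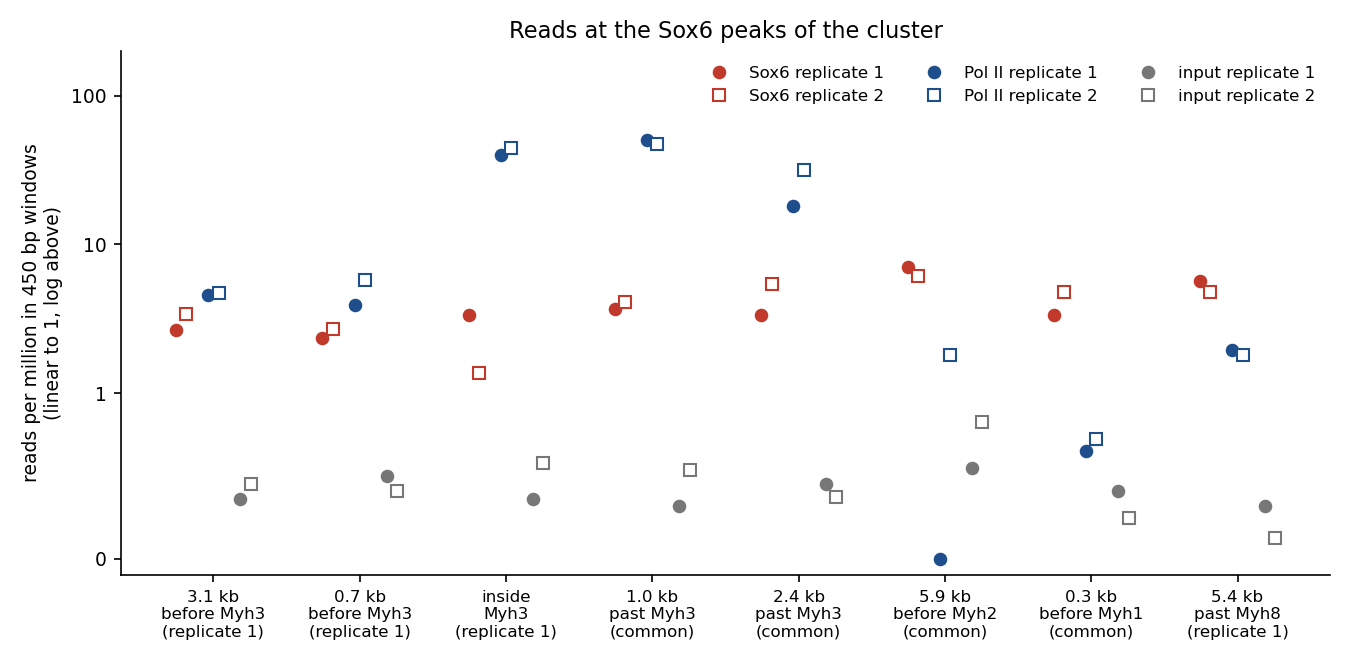
RPM in the 450 bp window on each of the 8 Sox6 peaks, in chromosome order, on an axis that is linear to 1 and logarithmic above; filled circles are replicate 1 and open squares replicate 2 of Sox6 (red), Pol II (blue) and input (grey). Sox6 lies above input in all 8 windows, between 1.36 and 7.03, whereas Pol II runs from 0 before Myh2 to 50.7 past Myh3.

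Motif matches were counted in the 4 common peaks of the cluster, in the deposited intervals and in wider windows. None of the 4 common intervals held the Sox motif, which 52% of all common intervals held, and none held the Tead motif, which 23.4% held. The Runx motif was in 3 of 4 (60.8% of all) and the E-box in 1 of 4 (55.5% of all), at Myh1, where a Runx match is directly followed by the E-box. In windows of 200 bp to each side of the centre the Sox motif was in 2 of the 4, near Myh3 and Myh1, the E-box in 3, the Runx motif in all 4 and the Tead motif in none. Over all common peaks such windows held the Sox motif in 71.7%, the E-box in 80%, the Tead motif in 40% and the Runx motif in 85.1%, and windows of the same length 2 kb away in 46.4%, 39.4%, 20.1% and 69.7%. The peak past Myh8 held a Sox match and a Runx match. A match is a description of the letters, and its absence says only that they are not in the window.

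The qPCR primers that the study listed for Myh1 and Myh2 fall on these peaks. Those of Myh1, ctgtcttcttgggaggaagc and ctgagtgccctctgtgaagg, bound chr11:67013162-67013276, 115 bp that begin at the first base of the common peak. Those of Myh2, tggaaggtttgtggggagtg and gctgaccagagcggttcctt, bound chr11:66978630-66978702, 73 bp within the peak printed above. No read-out of these amplicons was analysed here.

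Averaged over whole windows, Sox6 was called above input in the bodies of Myh3 and Myh8 and at the starts of Myh8 and Myh1, and each of these calls was lost under at least 1 alternative. In the body of Myh3, Sox6 was at 2.20 and 3.04 RPKM against 0.726 and 0.785 in the inputs, which is 1.78 on the log2 scale (standard error 0.168, adjusted p = 0.00512). In the body of Myh8 it was at 0.875 and 1.14 against 0.590 and 0.525, a ratio of 0.85 (standard error 0.173, adjusted p = 0.0263), which did not pass without input replicate 1 (adjusted p = 0.0801) or without input replicate 2 (adjusted p = 0.114). The groups did not overlap in either gene. With a pseudocount equal in RPM neither passed (adjusted p = 0.0616 for Myh3 and 0.0719 for Myh8). These were 2 of 6 members, beside 5.28% of the 20177 bodies tested. The bodies of Myh2, Myh1, Myh4 and Myh13 had ratios from -0.28 to 0.23 and did not pass. Without Sox6 replicate 1, Myh1 was called lower at -0.68 and Myh4 higher at 0.58. The 2 bodies called higher in Sox6 were those highest in Pol II. Other listed genes had Sox6 ratios as follows. Myog, Mylpf, Acta1 and Mybph, at 58.6 to 69.9 RPKM of Pol II, had Sox6 ratios from 1.4 to 1.77, of which Acta1 and Mybph passed, beside 1.78 for Myh3. The 8 others with at least as much Pol II as Myh8, at 19.4 to 31.2 RPKM, had Sox6 ratios from 0.13 for Myl1 to 1.32 for Myod1, of which Myl4 and Ttn passed, beside 0.85 for Myh8. Listed bodies with less Pol II passed too, among them Myh6 at 1.19 with 0.622 RPKM of Pol II, Pax7 at 0.66 with 1.2, Unc45b at 0.85 with 3.42 and Myom3 at 0.86 with 8.97. What part Pol II has in these Sox6 values was not tested, and the comparisons share their inputs.

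Sox6 was higher past the end of Myh3 than within it, a description since the same reads called the peaks there. In the 3 kb past the end, which hold both common peaks, Sox6 was at 6.81 and 9.31 RPKM against 0.941 and 1.06 in the inputs, while no one of the 10 parts of the gene reached over 3.63 RPKM in replicate 1 or 3.97 in replicate 2. Pol II in the same 3 kb, at 66.9 and 75.1 RPKM, was about as high as in the gene. In the 3 kb past Myh8 Sox6 was at 2.23 and 1.82 RPKM against 0.561 and 0.756.

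At the starts, Sox6 was called at Myh1 and Myh8 and not at Myh3. Myh1 had 13 and 7 Sox6 reads within 500 bp of the start, 4.35 and 4.77 RPKM, against 1.05 and 0.784 RPKM of input, which is 2.37 on the log2 scale (standard error 0.419, adjusted p = 1.04e-05). This window includes the common peak. Myh8 had 13 and 4 reads, 4.35 and 2.72 RPKM, against 0.410 and 1.11, a ratio of 2.41 (standard error 0.489, adjusted p = 0.000335), with no peak in any list. At both starts the Sox6 and input values did not overlap. Myh3 had 10 reads in replicate 1 and 1 in replicate 2, at 3.35 and 0.681 RPKM against 1.5 and 1.11, and its replicates fell on both sides of the inputs (ratio 0.53, adjusted p = 0.679). Without Sox6 replicate 2 its ratio was 1.42 and passed (adjusted p = 0.0199). The calls at Myh1 and Myh8 made 2 of 6 members beside 2.21% of the 18842 starts tested, whose median ratio was 0.63. They were lost without input replicate 1 (adjusted p = 0.996 for both) or input replicate 2 (adjusted p = 0.841 and 0.166) and with a pseudocount equal in RPM (adjusted p = 0.0630 and 0.112), with ratios from 1.71 to 3.11 in those fits. On simulated reads the test at starts, for Sox6 and for Pol II, leaned upward where nothing differed and made more false calls than its threshold allows, unlike the test on bodies.

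Over the spacers Sox6 was not called anywhere in the cluster with limma, but the fit with the replicate block called 2 spacers and voom weights called 1. The largest ratios in the limma fit were 1.04 from Myh8 to Myh13 (standard error 0.184) and 0.95 from Myh3 to Myh2 (standard error 0.112), each with an adjusted p = 0.0635. With the replicate block these had adjusted p = 0.00734 and 2.93e-05, and with voom weights the second had adjusted p = 0.0436. The spacer from Sco1 to Myh3 came next, at 0.62 (adjusted p = 0.117). In each of these 3 spacers, named for having the largest ratios, Sox6 was above input in both libraries, and the share of all spacers that do so is not given. Of all 16127 spacers 0.0186% were called in the limma fit. The shares in the other fits are not given, so counts from those fits cannot be read against spacers in general. Left out in turn, Sox6 replicate 1 gave 3 called spacers and either input 1.

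**Figure D5:**
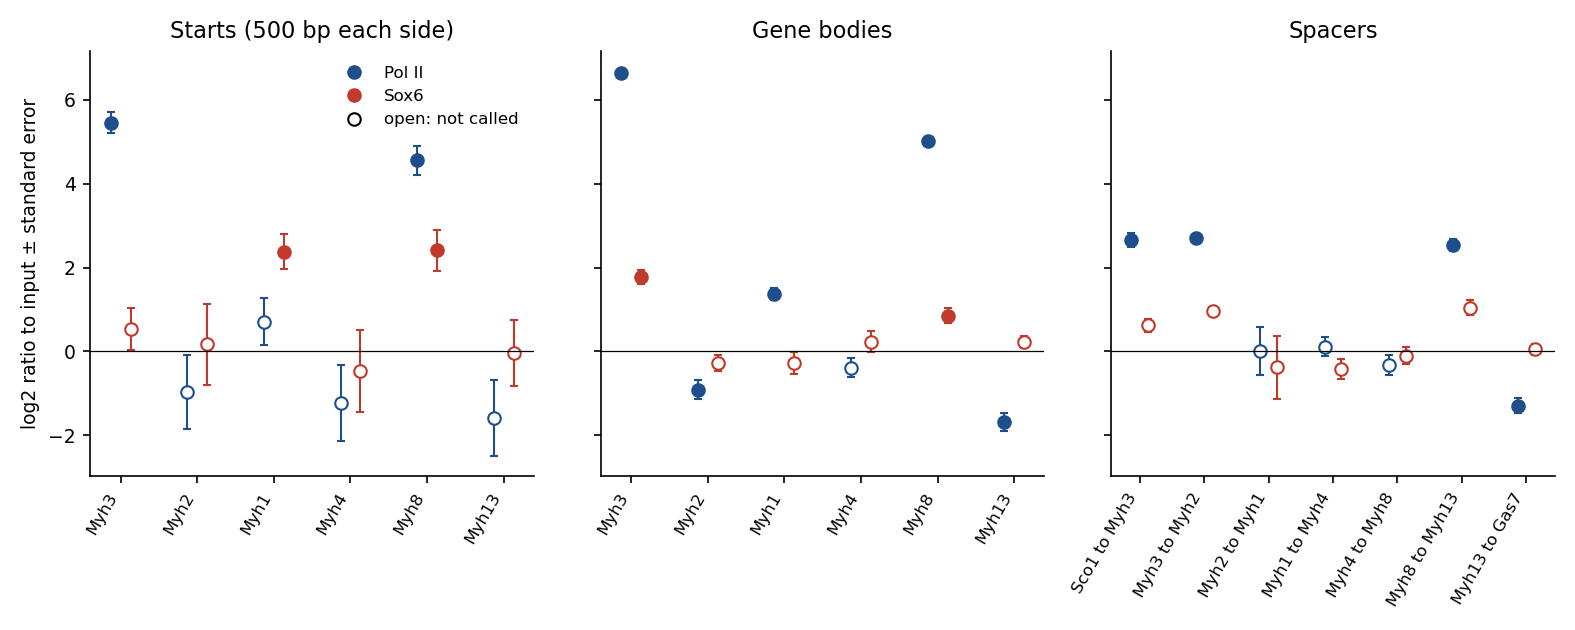
Log2 ratios of Pol II (blue) and Sox6 (red) to input, with standard errors, at the starts, the bodies and the spacers of the cluster in chromosome order; filled points passed the test at an adjusted p of 0.05 and open points did not. Pol II reaches 6.64 on the body of Myh3, and Sox6 is above input at the starts of Myh1 and Myh8, 2.37 and 2.41, and on the bodies of Myh3 and Myh8, 1.78 and 0.85.

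The genes next to the cluster carried more Pol II than input, at levels far below Myh3 and Myh8. On the side of Myh3, Sco1, a copper chaperone of cytochrome oxidase, had 4.09 and 3.79 RPKM of Pol II in its body and a log2 ratio of 2.01. Tmem220 was at a log2 ratio of 1.41 and 2310004I24Rik at 1.45. Beside 37.6% of all bodies called higher, all 3 passed. Their Sox6 ratios, 0.29, 0.49 and 0.14, did not. On the other side no gene starts within 50 kb of Myh13.

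Myosin heavy chains that lie elsewhere in the genome had much less Pol II than Myh3 or Myh8. Of 7, 4 were called higher in the body and 2 lower, beside 37.6% and 25.6% of all bodies. The higher ones were Myh9 and Myh10, nonmuscle forms, at 2.25 and 0.28, and Myh7, the slow MyHC-β, and Myh7b, at 1.14 and 2.12. Myh11, of smooth muscle, and Myh14 were called lower at -0.50 and -1.003. Myh7 had 0.887 and 1.05 RPKM of Pol II, below the 1.35 and 1.31 of Myh1. In Sox6, the starts of Myh7 and Myh7b were called, beside 2.21% of all starts, with log2 ratios of 3.44 and 2.37. The latter was the same size as at Myh1, and the upward lean of the test at starts applies here too. The bodies of Myh6, the cardiac MyHC-α, and Myh9 were called at 1.19 and 0.65, beside 5.28% of all bodies.

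Partners of the heavy chains in the thick filament are read against the 37.6% of all bodies called higher in Pol II. Among 5 light chains Mylpf, Myl1 and Myl4 passed, at 6.41, 4.65 and 3.76, and Myl2 and Myl3, of slow and cardiac muscle, were at -1.26 and -0.82 and did not. Of 8 binding and M-band proteins 6 passed, led by Mybph at 6.32 and the giant scaffold titin (Ttn) at 4.90, while Mybpc2 and Mybpc3 were at -0.05 and -0.68. All 3 folding factors passed, with Unc45b, the chaperone of muscle myosin, at 2.89. Sox6 bodies were called for 1, 3 and 1 of these lists, namely Myl4, Mybph, Myom3, Ttn and Unc45b, at ratios from 0.68 to 1.74, beside 5.28% of all bodies.

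By the distance over 4 log2 ratios, Pol II and Sox6 at start and body, among 16809 genes with all 4 values, Mylpf, Acta1 and Tmsb10 were most like Myh3, at distances of 0.635, 0.786 and 0.992. Tnnt2, Flnc and Acta2 were most like Myh8, at 0.553, 0.614 and 0.680. Acta1 and Acta2 encode skeletal and smooth muscle actins, Tmsb10 a protein that sequesters actin, Tnnt2 a troponin T and Flnc the filamin of muscle. The fits share their inputs, and nothing about shared control follows from such a likeness.

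Uniqueness in the genome bears on all of these values, because only reads that map to a single place were kept and the members resemble one another. At 39 bases, 95.2% of the body of Myh3, 91.6% of Myh2, 91.8% of Myh1, 93.7% of Myh4, 91.1% of Myh8 and 98.2% of Myh13 is unique. The exons are the less unique part, with 72.8% in Myh1, 74.9% in Myh2 and 78.5% in Myh4 against 93.3% in Myh3. The intervals of 7 Sox6 peaks, the middle 300 bases of the second peak past Myh3 and the printed promoters are unique throughout.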

How the data were processed

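Read positions and peak lists of 2 Sox6, 2 Pol II and 2 input ChIP-seq libraries were analysed, grouped by their labels. The authors aligned reads with Bowtie 0.12.5 to mm9, removed reads with more than one best place, and ran the peak caller SISSRs with the input of each experiment as control. The deposited read files hold positions with no counts, and the deposited score column of the peak lists is unnamed and was used as a threshold in one alternative only.

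A read was counted where its 5′ end fell, in gene starts (500 bp each side), gene bodies, spacers and 450 bp windows on Sox6 peaks, with GENCODE M1 models of the same build. Immunoprecipitate and input were compared with limma 3.58.1 (R 4.3.3, with a trend) on log2 RPM (reads for each 1000000 mapped), with 0.5 reads added and at least 10 reads over 4 libraries, fitted on all features and adjusted by Benjamini-Hochberg at 0.05. On simulated data with the real library sizes, the fits of bodies kept false calls under the threshold, while those of starts, where reads are few and 0.5 reads weigh more in the smaller libraries, leaned upward and exceeded it. Spacers and peak windows were not simulated. Intervals are exact binomial. Counting used Python 3.11.15 with pysam 0.24.0, scipy 1.17.1, numpy 2.4.6, samtools 1.23.1, pandas 2.3.3 and matplotlib 3.10.9.

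The genes named are the members, annotated genes within 50 kb, Actb, lists of thick filament genes, cell type markers, and the 3 genes each most like Myh3 and Myh8. Members and lists were chosen with earlier results of these data known, and the promoter motifs other than the 4 of the study and the shared runs were chosen after the sequences were seen. Alternatives were other windows, filters, pseudocounts, scalings, voom weights, repeated positions counted once, the replicate number as a block and each library left out.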

Additional observations from a re-analysis of the deposited data

How the results depend on the processing

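Pol II on the bodies and starts of Myh3 and Myh8 and on the body of Myh1 kept direction and call under every alternative run. Of 689 values of single genes and windows under alternatives, 616 kept direction and call, 15 lost the call, 24 gained one and 34 changed sign, 31 of these with no call on either side. With libraries scaled on 10 kb bins no body and no spacer of the cluster was called lower in Pol II and 5 spacers were called higher, beside 36.4% of all spacers. Under that scaling the ratios that changed sign were 0.26 (Myh2 body), 0.78 (Myh4 body), 0.20 (Myh2 start) and 0.85 (Myh4 to Myh8) in Pol II and 0.095 (Myh13 start) and 0.026 (Myh4 to Myh8) in Sox6. In Pol II, signs also changed for the Myh1 start with 250 bp windows (-0.22), for Myh2 to Myh1 with a pseudocount equal in RPM (-0.24), ends shifted by 75 bp (-0.44) and voom weights (-0.068), for Myh1 to Myh4 with shifted ends (-0.0036) and with spacers trimmed by 5 kb (-2.09), for Myh4 to Myh8 trimmed (0.085) and for the Sox6 peak before Myh2 with that pseudocount (-0.58). In Sox6, they changed for the Myh2 start with that pseudocount (-0.76) and repeated positions counted once (-0.11), for the Myh13 start with positions counted once (0.036), shifted ends (0.31), voom weights (0.032) and 250 bp windows (0.96), and for Myh4 to Myh8 trimmed (0.38). With each library left out in turn, signs changed within -0.41 to 0.43 (Myh2 to Myh1) and -1.09 to 1.52 (the peak before Myh2) in Pol II, and in Sox6 within -0.68 to 0.12 (Myh1 body), -0.11 to 0.58 (Myh4 body), -0.36 to 1.42 (Myh3 start), -0.48 to 0.81 (Myh2 start), -0.55 to 0.48 (Myh13 start), -1.26 to 0.50 (Myh2 to Myh1), -0.27 to 0.066 (Myh4 to Myh8) and -0.00030 to 0.090 (Myh13 to Gas7). Pol II lower calls at starts numbered 0, but 3 with a pseudocount equal in RPM and 1 with voom weights. With that pseudocount, 0 bodies and 0 starts were called in Sox6. Sox6 spacers numbered 1 with voom weights. With each library left out in turn, the calls ranged from 1 to 3 for lower Pol II bodies, 0 to 2 for lower Pol II starts, 1 to 2 for lower Pol II spacers, 1 to 3 for Sox6 bodies, 0 to 1 for lower Sox6 bodies (Myh1, without Sox6 replicate 1), 0 to 3 for Sox6 starts and 0 to 3 for Sox6 spacers. A fit that loses 1 library takes the lone one to vary like the other groups. The cause was not tested for any of these.

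The authors called peaks against the input of each experiment, and the replicate number was read as the experiment. Deviations of libraries with the same number had correlations between -0.0540 and 0.0473, and the fit with the replicate block changed 1 count, that of Sox6 spacers, to 2.

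Pol II levels from reads in the gene's Pol II peaks only were 67.1 (Myh3), 16 (Myh8) and 0 RPKM (Myh2, Myh1, Myh4 and Myh13). Over unique length they were 78.9 (Myh3), 19.8 (Myh8) and 1.45 (Myh1). With input subtracted they were -0.248 (Myh2), 0.811 (Myh1), -0.123 (Myh4) and -0.338 (Myh13). Pol II peaks of replicate 2 in the region numbered 29, and 17 at or above the median score of the list. In windows reaching 200 bp to each side of the peak centres the Sox motif was in 2 and the E-box in 3 of the common peaks.

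The windows on Sox6 peaks held 2 to 21 Sox6 reads, which limits their precision. Each group had 2 libraries, no control antibody was sequenced, and the lower Pol II calls rest on the scaling.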
